A study of Ipomoea batatas with 12 samples.

Results

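A stretch of consecutively numbered genes of sweetpotato (Ipomoea batatas) was described in storage roots of a line and its natural mutant. The deposited identifiers share the prefix Ibat.Brg_v3., followed by a number, a letter from A to F, the letter G and a running number, and they are printed here without the prefix, as in 01AG008920. The stretch holds every identifier of number 01, on the 6 letters A to F, with a running number from 003800 to 008920 and at least 10 counts summed over the 12 libraries. Of 2792 identifiers in that range, 1489 reached the minimum and are its members, out of 225111 genes in the table. Members just inside and just outside the minimum numbered 14 with exactly 10 counts and 20 with exactly 9. The identifiers are read here as chromosome number, chromosome copy and order along it, which is an assumption, since the count table holds no coordinates and neither it nor the labels explain them.

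WT stands for the wild-type line M1-125 and MT for a mutant that arose naturally from it. Both were field-grown, with treatment labelled as normal, and storage roots were sampled 120 days after planting. Each line's flesh and skin were sequenced in 3 libraries apiece, which makes 4 groups, and values written with ± are the mean and SD of a group (n = 3). The series title names regulators of storage root skin colour as its subject, and the labels give no mutated gene and no age other than the days after planting. The replicates are called biological, and whether they are from different plants is not stated, so a p-value reflects only how far these samples spread.

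Cultivated sweetpotato is a hexaploid, so most genes are present as several related copies on corresponding chromosomes. The storage root flesh is mainly starch-storing parenchyma, and the skin is a thin corky layer, the periderm, in which pigments such as anthocyanins give the root its outer colour. On plant chromosomes, neighbouring genes are often related to each other through tandem duplication. The table pairs no identifier with a gene name, and none of these identifiers was found in the gene table of the reference assembly IBA_r1.0, so no function is given to any member and the tissue labels could not be checked against marker genes.

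The members were chosen by flesh values. The bounds are the lowest and the highest running number among 8 genes of number 01 that had no more than 3 counts in WT flesh as a group, a mean above 10 counts per 1000000 reads of the scaled library size (CPM) in MT flesh and a higher level there by edgeR's test. Flesh differences between MT and WT are therefore descriptions of what chose the members. Where edgeR's threshold is used on them below, it only sorts members into lists and supports nothing. The difference between MT and WT skin took no part in that choice. The skin libraries entered it only through the minimum of 10 counts and through the fit of all 12 libraries together. That fit set the filter, the scaling and the spread of each gene. Total counts were 15893593 to 20276417 in the flesh libraries and 8507461 to 15065079 in the skin libraries, and 3 counts over a group correspond to 0.0467 CPM for WT flesh and 0.117 CPM for MT skin.

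The 8 bound-setting genes lie on all 6 letters and were close to absent from WT flesh. Gene 01CG006240 had 0 counts in each WT flesh library and 3416, 3332 and 3122 counts in the MT flesh libraries, and it stood at 69.1, 70.8 and 83.6 CPM in WT skin and 101, 95.5 and 103 CPM in MT skin. Against 3 counts over the WT flesh group, its MT flesh level of 178 ± 7.10 CPM was at least 3801-fold higher. Gene 01EG003800 had 0 counts in each WT flesh library and 2071, 1783 and 1744 counts in MT flesh, at least 2155-fold higher. It was also present in every skin library, with 51.9, 53.7 and 55.9 CPM for WT and 78.6, 80.3 and 94.1 CPM for MT. Both genes thus separated MT flesh from WT flesh completely while the skin of both lines held them at 51.9 CPM or more.

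Letter F carried 2 of the 8. Gene 01FG006550 was absent from WT flesh with 0 counts in each library, reached 58.8, 56.2 and 64.3 CPM in MT flesh, and was higher than that in all 6 skin libraries, with 146 ± 8.52 CPM in WT and 175 ± 0.821 CPM in MT. Its neighbour but one, 01FG006570, also lacked any WT flesh count and had 43.7, 42.5 and 40.6 CPM in MT flesh, above its skin levels of 17.5 ± 3.05 CPM in WT and 19.1 ± 1.80 CPM in MT. The lower bounds of their differences in flesh were 1279-fold and 904-fold. So 1 of these neighbours was more abundant in skin than in MT flesh and the other less.

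The remaining 4 had lower means in both skins than in MT flesh, and 3 of them had 1 or 2 counts over WT flesh. Gene 01AG008920, the last member of letter A, had 0 counts in WT flesh and 572, 497 and 204 counts in MT flesh, so that MT flesh replicate 3 held less than the other 2. It was at 22.4 ± 9.19 CPM in MT flesh, at least 479.6-fold above WT flesh, and at 0.694 ± 0.833 and 2.26 ± 0.992 CPM in WT and MT skin. Gene 01BG006810 had 1 count over WT flesh and 432, 448 and 406 counts in MT flesh, a ratio of 1483 with an exact 95% interval of 265.7 to 58617. Gene 01DG006020 had 1 count over WT flesh and 567, 509 and 560 in MT flesh, a ratio of 1887 (338.1 to 74558). Gene 01EG004140 had 2 counts over WT flesh and 408, 480 and 388 in MT flesh, a ratio of 736 (203.2 to 6081). These intervals cover counting error only.

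Most of the difference in flesh came from 37 members with an adjusted p under 0.05 and a fitted log2 difference of at least 4 in that contrast, a threshold chosen after the values were seen. They were 37 of 332 such genes among 80351 tested, which is 0.413% of tested genes. Since the flesh contrast chose the stretch, nothing is read from that share. Summed over the 37, the level was 14.4 ± 2.83 CPM in WT flesh, 5739 ± 269 CPM in MT flesh, 1985 ± 88.3 CPM in WT skin and 2857 ± 51.5 CPM in MT skin. They accounted for 88.6% of the higher summed level of all members in MT flesh. In flesh no library of one line overlapped the other line's summed values, and WT flesh stood apart from all 3 other groups. Bulk RNA cannot tell fewer expressing cells from less RNA per cell.

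**Figure D1:**
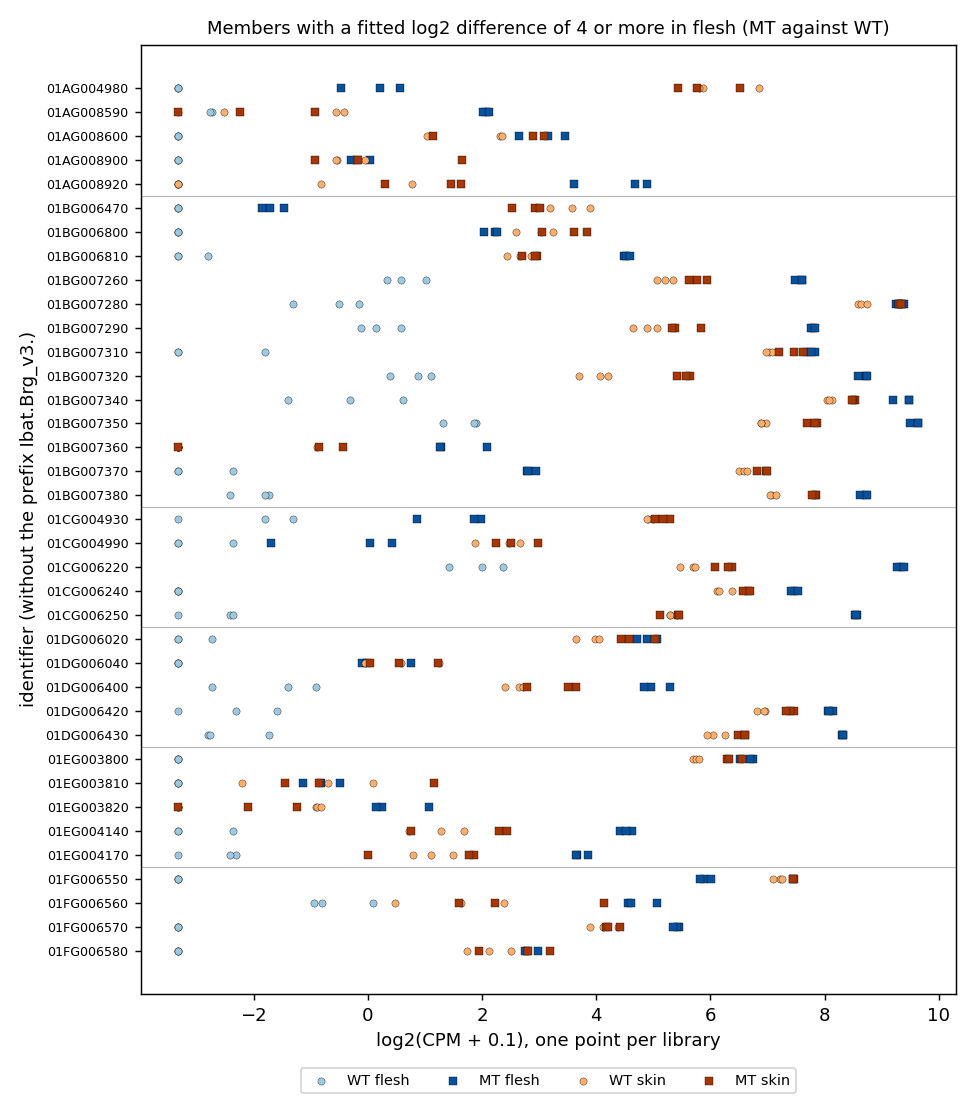
CPM of the 37 members with a fitted log2 difference of 4 or more in flesh, on a log2 axis after adding 0.1 CPM, with 1 point per library; rows are identifiers in running order, and lines divide the letters. WT flesh libraries lie at or near the left of every row, many at 0 counts. In some rows with few skin counts, such as 01AG008590 and 01BG007360, single skin libraries at 0 counts lie as far left or further. MT flesh libraries lie near or above the skin libraries in most rows. In 28 of the 37 the MT flesh mean exceeded the WT skin mean.

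The 37 members did not spread evenly along the stretch. With members no more than 20 identifiers apart joined, a distance also chosen after the values were seen, they fell into 13 groups, of which 11 held 2 or more members. The largest group lay on letter B from 007260 to 007380, where 10 of 13 consecutive identifiers were in the set, 2 of the others had no count at all, and no identifier between them was a member outside the set. In WT flesh its summed level was 9.03 ± 1.82 CPM and in MT flesh 3543 ± 207 CPM, beside 1238 ± 22.7 CPM in WT skin and 1898 ± 26.9 CPM in MT skin. That group alone gave 3543 of the 5739 CPM that the 37 reached in MT flesh.

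Within the letter B group the levels differed widely from neighbour to neighbour. Gene 01BG007280, the most abundant member of letter B, had 6, 14 and 17 counts in WT flesh and 12859, 11846 and 10703 counts in MT flesh. In CPM it went from 0.569 ± 0.249 in WT flesh to 636 ± 30.4 in MT flesh, and it reached 403 ± 21.0 in WT skin and 643 ± 12.1 in MT skin, so MT flesh and MT skin held it at about the same level. Gene 01BG007320 had 1.21, 1.73 and 2.06 CPM in the WT flesh libraries and 421, 384 and 430 CPM in MT flesh, against 16.7, 18.4 and 12.9 CPM in WT skin and 42.7, 49.8 and 47.3 CPM in MT skin. Its MT flesh level was thus far above both skins, by 8.83-fold over MT skin.

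Next to these, 01BG007370 followed the opposite order between tissues. It had 2 counts over WT flesh and 7.10 ± 0.467 CPM in MT flesh, but 95.8 ± 4.81 CPM in WT skin and 122 ± 8.13 CPM in MT skin. The adjacent 01BG007380 stood at 415 ± 19.0 CPM in MT flesh, above its 136 ± 5.74 CPM in WT skin and 226 ± 6.11 CPM in MT skin. Per kilobase of gene length, the members of the group ranged in MT flesh from 1.31 CPM per kb for 01BG007360 to 561 CPM per kb for 01BG007340. If copies share reads, single identifiers are less certain than the group's sum, because the handling of reads that map to several places is not given in the sources used here.

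A shorter group on each of letters C and D showed the same order of the 4 tissues and lines. On letter C, 01CG006220, 01CG006240 and 01CG006250 came to a summed 1197 ± 39.5 CPM in MT flesh, against 3.91 ± 1.29 CPM in WT flesh, 164 ± 10.3 CPM in WT skin and 217 ± 5.39 CPM in MT skin. Gene 01CG006220 alone held 650, 615 and 673 CPM in the MT flesh libraries and 2.58, 3.90 and 5.06 CPM in those of WT flesh, with no overlap. On letter D, the group from 006400 to 006430 summed to 0.464 ± 0.104 CPM in WT flesh, 625 ± 10.9 CPM in MT flesh, 193 ± 11.7 CPM in WT skin and 273 ± 5.13 CPM in MT skin. In these 2 groups, as in the large one on B, MT flesh exceeded both skins.

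Letters A, E and F carried groups with lower totals. The 2 paired groups of letter A summed to 12.7 ± 2.48 and 23.2 ± 9.26 CPM in MT flesh, those of letter E to 103 ± 7.78 and 36.0 ± 0.951 CPM, and that of letter F, from 006550 to 006580, to 136 ± 6.94 CPM. The letter F group was the only one of these with a lower level in MT flesh than in skin, where it reached 171 ± 10.2 CPM in WT and 209 ± 8.20 CPM in MT. In all 37 members the WT skin mean was above the WT flesh mean, and in 31 of them it was above 1 CPM. The 37 were picked by a contrast that favours a low WT flesh level, so nothing is read from this order. MT flesh was above MT skin in 26 of the 37.

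A few of the 37 reached only low levels in MT flesh while being clear in skin. Gene 01AG004980 lacked any WT flesh count and had 1.02 ± 0.382 CPM in MT flesh, but 58.1, 55.5 and 115 CPM in WT skin and 91.7, 54.5 and 43.3 CPM in MT skin. Gene 01BG006470 had 12 counts over the 3 MT flesh libraries and 11.9 ± 2.84 CPM in WT skin, so its lower bound in flesh is 4.58-fold, below the fold that its fitted value implies. On letter C, 01CG004930 and 01CG004990, which form a group of their own, lay at 3.03 ± 1.15 and 0.791 ± 0.530 CPM in MT flesh and at 30.4 ± 1.29 and 5.09 ± 1.38 CPM in WT skin. These genes lay away from the abundant groups of their letters.

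**Figure D2:**
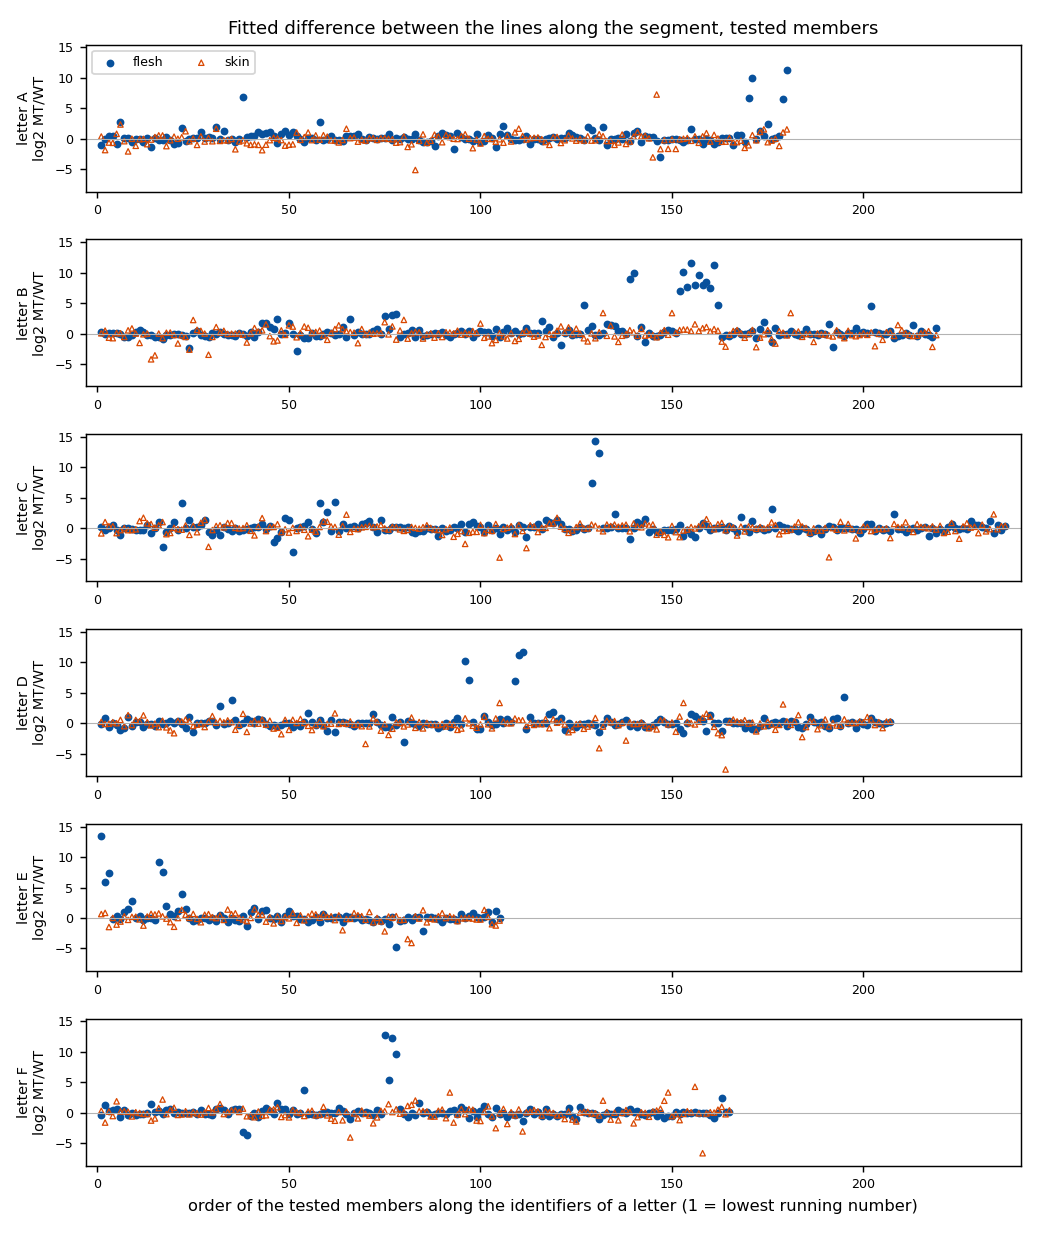
Fitted log2 difference of MT against WT in flesh (filled circles) and skin (open triangles) for the 1113 tested members, in the order of their running numbers, with 1 panel per letter. High flesh values form short groups, at the end on letter A, at the start on letter E and in the interior on the other letters. The places at the end on A and the start on E follow from the choice, since 01AG008920 and 01EG003800 set the bounds. Skin values of the same members lie between -1.48 and 1.54. Fitted values of members with 0 counts in WT flesh depend on the prior count.

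The place of the groups was compared between letters by exact gene length, since no sequence of these genes was used here. Letters A, B, C, D and E each had 2 groups of 2 or more members, and letter F had 1. From the end of the first to the start of the second there were 30 identifiers on A, 44 on B, 120 on C, 35 on D and 32 on E, so letter C stood apart. The first group of C had none of the lengths described next. Around the groups of 2 or more members, within 5 identifiers, 8 exact lengths recurred on at least 3 letters, a rule chosen after the values were seen. A gene of 2952 bases followed the first group on letters A, B and E and the only one on F. That length occurs in 36 genes of the whole table and 7 of number 01, and the 4 genes that carry it here had 15 to 98 counts over the 12 libraries. A gene of 2217 bases stood just before it on B, E and F, with 0 counts in every library, and a gene of 912 bases stood near the first groups of A, D and E.

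Around the second group of the pairs the recurring lengths were others, except that 1 of them, 411 bases, also stood near the first group of B. That length stood near the second groups of A, B and E. A length of 414 bases stood near those of B, C and D, and also near 01BG006470. These lengths are common, with 374 and 447 genes in the whole table. A gene of 2235 bases lay in or beside the second group on A, B, C and E, and one of 2205 bases stood by those of B, C, D and E. A length of 1206 bases was shared by 01AG008900, 01BG007280 and 01EG004150. Their levels were unlike, with 0.804 ± 0.108 CPM in MT flesh for 01AG008900 and 636 ± 30.4 CPM for 01BG007280. On letter E, 01EG003810 and 01EG004140, shared a length of 1074 bases with 01FG006580, and their MT flesh means were 0.479, 22.9 and 7.07 CPM. By these lengths the group of letter F resembled the first groups. Equal length and order do not show that genes are copies of each other.

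An alignment of the order of exact lengths over the stretch gave few matches to build on. With at least 2 other matches within 10 genes required, a median of 3.93% of a letter's identifiers matched another letter of number 01, over 30 ordered pairs with a range of 0.828% to 6.07%. The same alignment to the letters of other numbers gave a median of 0% and a highest value of 2.15% over 420 pairs. Matched genes on both sides placed 24 of the 37 members within at most 50 genes of another letter, in 36 such places counted per gene and letter. Of these places, which held a median of 4 genes on the other letter, 26 held another of the 37. Of all identifiers in the range, 1.325% were among the 37. The places are not independent, because neighbouring members share them, a pair of letters can be counted from both sides and some hold only the matched gene. That share is therefore not a like background, and nothing is read from the count of 26. As examples, the place of 01AG008590 and 01AG008600 on letter E held 01EG003800, 01EG003810 and 01EG003820, and that of 01CG006240 and 01CG006250 on letter B held 01BG007360, 01BG007370 and 01BG007380.

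Genes directly beside the bound-setting genes shared the pattern only in part. Of 14 places for the nearest member on either side, 8 held one of the 37, with 01FG006560 counted from both of its neighbours. Genes 01CG006220 and 01CG006250 flank 01CG006240, and the latter of the flanking pair stood at 374 ± 4.003 CPM in MT flesh and 0.0601 CPM in WT flesh. Gene 01FG006560, between the letter F genes, had 39 counts over WT flesh and 27.1 ± 5.53 CPM in MT flesh, a 43.7-fold difference of means. The other 6 places held members at no more than 0.536 CPM in any group or, for the member before 01FG006550, about equal in the 4 groups at 5.37 to 7.37 CPM.

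The skin comparison asks whether the line difference of these members extends to a tissue whose own line difference did not choose them. In skin, 56 of 1113 tested members were higher in MT and 41 were lower, at an adjusted p under 0.05 from edgeR's quasi-likelihood test, adjusted by Benjamini-Hochberg over all 80351 tested genes. Over all tested genes 3.64% were higher and 3.21% lower, and among the members the shares were 5.03% and 3.68%. For genes of number 01 outside the stretch they were 4.16% and 3.29%. Both shares of the members are near these backgrounds, and the median log2 difference over the members was 0.00, as over all tested genes. Once WT skin replicate 2 was dropped, which is the deepest of the skin libraries, 33 members were higher and 25 lower. The shares of all tested genes in that run are not given here.

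The called skin differences were mostly small and lay on every letter. The higher members numbered 8 on A, 13 on B, 10 on C, 14 on D, 3 on E and 8 on F, and the lower ones 8, 6, 7, 7, 4 and 9. Their median log2 difference was 0.60 for the higher and -0.98 for the lower members, and 9 and 20 of them differed by at least 1 on the log2 scale. In 94 of the 97 the 3 MT and 3 WT skin libraries did not overlap. A call with 3 libraries per group favours such separation. The share over all called genes is not given here, so nothing is read from this count.

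Among the 37 members strongly higher in MT flesh, 12 were also higher in MT skin by edgeR's test, none was lower, and 25 were not called. At an unadjusted p under 0.05 edgeR gave 1 as lower, and DESeq2 with its own adjustment gave 0. These 12 are 32.4% of the 37, beside 3.64% of all tested genes higher. The flesh test that picked the 37 and the skin test come from the same fit, with 1 estimate of spread per gene. All tested genes are therefore not a like background, and nothing is read from that share. The parts that this and their abundance in skin have in these calls were not tested. The median log2 difference of the 37 in skin was 0.56, and 32 of 37 were above 0. Some of the 37 had few skin counts, such as 01AG008590, with 12 over WT skin and 5 over MT skin. Of the other 1076 tested members, 44 were higher and 41 lower. Without WT skin replicate 2 the count of 12 became 8. Of the 12, 6 belong to the group of 10 on letter B.

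**Figure D3:**
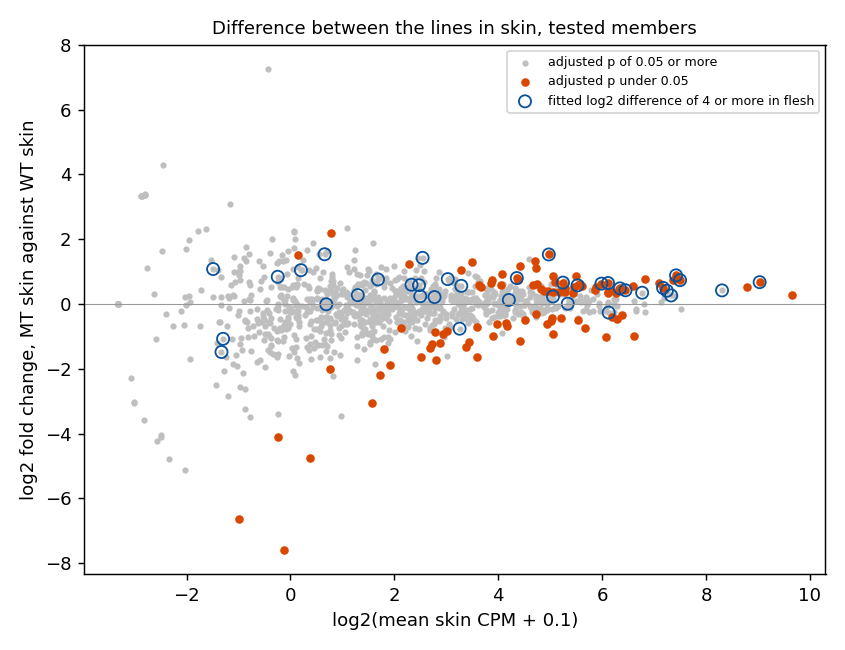
Log2 fold change of MT skin against WT skin for the tested members (vertical axis) over the log2 mean skin CPM plus 0.1 (horizontal axis); filled colour marks an adjusted p under 0.05, and circles mark the 37 members with a fitted log2 difference of 4 or more in flesh. Of the circled members 32 of 37 lie above 0, with 12 of them called higher, and the deepest called falls are at low skin levels.

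Gene 01BG007320 showed the clearest rise in skin. Its 3 MT skin libraries, at 42.7, 49.8 and 47.3 CPM, all exceeded the 12.9 to 18.4 CPM of WT skin, a log2 difference of 1.53 (SE 0.13, adjusted p = 7.2e-06, edgeR). Its neighbour 01BG007280 stood at 653, 630 and 647 CPM in MT skin and 384, 398 and 426 CPM in WT skin, a rise of 0.68 on the log2 scale (SE 0.08, adjusted p = 0.00015, edgeR). Gene 01CG006220, the most abundant member of letter C over the mean of the 4 groups, rose by 0.63 (SE 0.13, adjusted p = 0.011, edgeR), from 49.6 ± 4.63 to 76.9 ± 8.18 CPM. Without MT skin replicate 2 or WT skin replicate 1 its call was lost, with adjusted p of 0.051 and 0.057 (edgeR).

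Of the 8 bound-setting genes, 3 were higher in MT skin by this test. Gene 01EG003800 rose by 0.65 on the log2 scale (SE 0.10, adjusted p = 0.0014, edgeR), with no overlap between the lines. Gene 01CG006240 rose by 0.42 (SE 0.08, adjusted p = 0.0099, edgeR), and it had an adjusted p of 0.051 without WT skin replicate 2. Gene 01DG006020 rose from 12.4, 15.7 and 16.5 CPM in WT skin to 32.5, 23.7 and 21.6 CPM in MT skin, by 0.80 (SE 0.19, adjusted p = 0.022, edgeR). Its call was lost without MT skin replicate 1, WT skin replicate 1 or WT skin replicate 2, with adjusted p from 0.055 to 0.092 (edgeR). For the other 5 the skin difference did not pass, at adjusted p from 0.053 to 0.69 (edgeR), with log2 values of 0.13 for 01FG006570, 0.22 for 01BG006810, 0.27 for 01FG006550, 0.76 for 01EG004140 and 1.54 for 01AG008920.

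The largest rise in skin that met the rule for named genes was that of 01FG004420, which had 0, 16 and 4 counts in WT skin and 32, 24 and 15 in MT skin. The log2 difference was 2.19 (SE 0.61, adjusted p = 0.046, edgeR). This call was lost when any 1 of 10 of the 12 libraries was left out, each MT skin library and WT skin replicate 3 among them, and without WT skin replicate 2 the log2 difference was 3.54. In WT flesh the gene stood at 4.17 ± 0.210 CPM and in MT flesh at 3.48 ± 0.252 CPM. Its difference thus rested on low counts in WT skin.

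The 2 largest falls that met the same rule were on letters C and E, while falls as deep as -7.60 on the log2 scale were called among members that did not meet it. Gene 01CG007410 had 26, 31 and 16 counts in WT skin and 0, 0 and 2 in MT skin, a ratio of WT to MT of 29.8 with an exact 95% interval of 7.96 to 250.8 for counting error, and an adjusted p of 0.0004 (edgeR). Both flesh groups held it, with 5.22 ± 0.602 CPM for WT and 6.78 ± 0.764 CPM for MT. With MT skin replicate 3 left out, no MT skin count remained and the call held, with an adjusted p of 0.00018 (edgeR). Gene 01EG005700 fell from 5.72, 5.74 and 4.29 CPM in WT skin to 1.500, 1.36 and 0.529 CPM in MT skin, by 2.19 on the log2 scale (SE 0.37, adjusted p = 0.0024, edgeR), and stood at 2.14 ± 0.169 and 1.98 ± 0.158 CPM in WT and MT flesh. In skin both genes separated the lines without overlap, as the rule required.

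Abundant members of the other letters had other tissue patterns. Gene 01AG005170 was the most abundant member of letter A and favoured flesh, with 543 ± 16.5 CPM in WT flesh, 845 ± 34.8 CPM in MT flesh, 130 ± 16.6 CPM in WT skin and 66.0 ± 8.66 CPM in MT skin. In skin it fell by 0.98 on the log2 scale (SE 0.10, adjusted p = 2.6e-05, edgeR). Gene 01FG005380 on letter F had the same order, with 381 ± 25.2 CPM in WT flesh, 467 ± 10.5 CPM in MT flesh, 54.4 ± 4.82 CPM in WT skin and 38.7 ± 1.72 CPM in MT skin, and fell by 0.49 in skin (SE 0.08, adjusted p = 0.0011, edgeR). For both genes MT was above WT in flesh and below it in skin, without overlap in either tissue.

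On letters D and E the most abundant members favoured skin. Gene 01DG008910 stood at 140 ± 19.0 and 159 ± 7.67 CPM in WT and MT flesh and at 725 ± 26.5 and 882 ± 16.3 CPM in WT and MT skin. The skin difference of 0.28 on the log2 scale (SE 0.08, adjusted p = 0.044, edgeR) was lost without any 1 skin library, with adjusted p from 0.076 to 0.14. Gene 01EG004620 had 107 ± 5.16 CPM in WT skin and 167 ± 2.98 CPM in MT skin, a rise of 0.64 (SE 0.08, adjusted p = 0.00018, edgeR), and 22.2 ± 2.35 and 16.8 ± 0.807 CPM in WT and MT flesh. The latter was thus higher in MT in skin and lower in MT in flesh.

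Summed over all members of a letter, the lines differed most on letter B. Its level was 2359 ± 33.2 CPM in WT flesh, 5925 ± 217 CPM in MT flesh, 3881 ± 41.5 CPM in WT skin and 4701 ± 48.9 CPM in MT skin. The MT to WT ratio in flesh was 2.51 on B, 1.51 on C, 1.43 on D, 1.21 on A, 1.15 on E and 1.08 on F. In skin the ratio was 1.21 on B, 1.18 on E, 1.15 on D, 1.10 on C, 1.03 on F and 0.979 on A. The summed skin values of the lines overlapped on A and touched on F. Letter E also stood out for few members, since 39.1% of its identifiers reached 10 counts against 51.0% to 60.7% on the other letters.

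Without the 37 members the flesh ratios changed to 1.00 on B, 1.03 on C, 1.03 on D, 0.983 on E and 1.02 on F, while letter A kept 1.20. On letter A the remainder includes the abundant 01AG005170. Besides the 37, another 41 members were higher in MT flesh by the same test, with a median log2 difference of 1.11 and a highest of 3.02, and 14 were lower. In all, 78 members (7.01%) were higher and 14 (1.26%) lower in MT flesh, where 3.75% and 1.21% of all tested genes were. As that contrast chose the members, nothing is read from these shares. Scaled by library totals alone, 67 were higher and 25 lower.

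**Figure D4:**
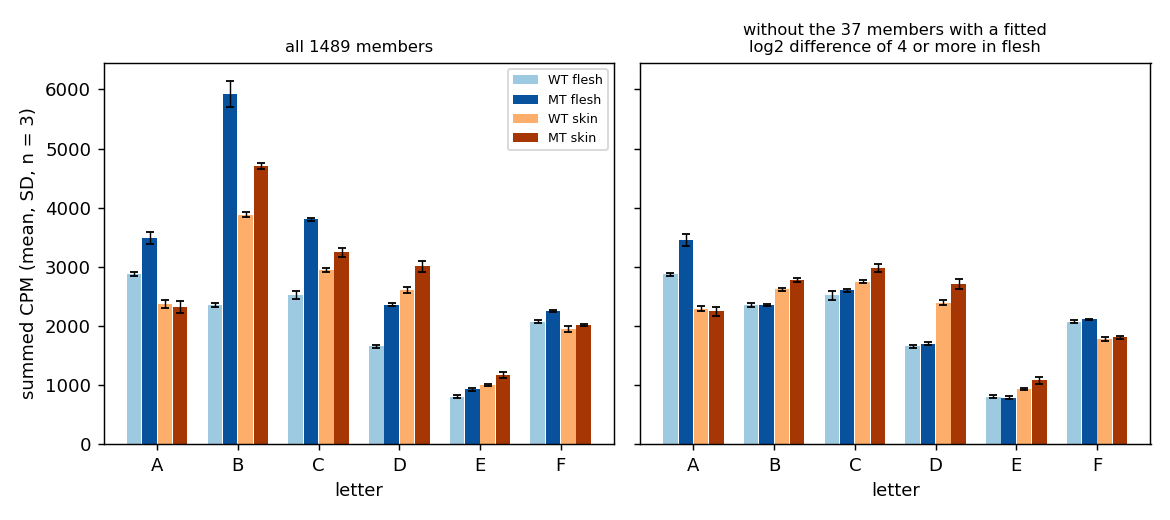
Summed CPM of the members by letter, as the mean of 3 libraries with the SD as error bars, for all 1489 members (left) and without the 37 members with a fitted log2 difference of 4 or more in flesh (right). Letter B rises from 2359 to 5925 CPM between WT and MT flesh on the left and stays level on the right, where letter A has the only MT flesh bar clearly above WT flesh.

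Skin and flesh differed for many of the tested members in each line. In WT, 361 members were higher in skin and 252 lower, or 32.4% and 22.6%, where 26.3% and 24.1% of all tested genes were higher and lower. In MT, 324 were higher in skin and 292 lower, or 29.1% and 26.2%, beside 25.5% and 25.2% of all tested genes. Both comparisons use the flesh libraries that set the bounds, so these counts are descriptions. They turn with the scaling, since library totals alone, which shift the median of all genes from -0.02 to -0.36 in WT and from -0.06 to -0.34 in MT on the log2 scale, gave 308 higher and 360 lower in WT and 278 and 374 in MT. All 37 strongly flesh-raised members were among those higher in WT skin than in WT flesh, but the contrast that picked them favours a low WT flesh level.

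Some members were present in skin and close to absent from WT flesh. With no more than 3 counts over WT flesh and a mean above 10 CPM in WT skin, there were 19 of them, a set chosen after the values were seen. Of these, 12 stayed at or under 0.214 CPM in MT flesh, 8 of them with 0 counts, although their WT skin means ran from 10.4 to 138 CPM. The most abundant in WT skin was 01BG003940, with 138 ± 14.4 CPM in WT skin, 143 ± 5.53 CPM in MT skin and 0 counts in both flesh groups. Gene 01AG007460 was at 93.2 ± 3.03 and 73.3 ± 2.59 CPM in the skins and also at 0 counts in all flesh libraries.

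Only 7 of the 19 were above 1 CPM in MT flesh, and 5 were above 10 CPM, namely 01CG006240, 01DG006020, 01EG003800, 01FG006550 and 01FG006570. Among all genes of the series 717 met the same 2 conditions, 693 of them stayed at or under 1 CPM in MT flesh, and 5 were above 10 CPM. Those 5 are bound-setting genes, chosen for a low WT flesh and a high MT flesh level, so nothing is read from their place among the 717. The part of skin RNA in the MT flesh levels was not tested. In skin, 3 of the 7 members were higher in MT and none lower, and of the 12 none was higher and 2 were lower, by edgeR's test at 0.05, where 3.64% and 3.21% of all tested genes were higher and lower. Neither of those counts of 0 changed at an unadjusted p under 0.05 or with DESeq2. The 7 and the 12 were split by MT flesh level, and all 7 belong to the 37 members strongly higher in MT flesh. Their skin calls come from the fit that picked the 37, so nothing is read from these counts. Among the calls, those of 01CG006240 and 01DG006020 were lost without some single skin libraries. The difference in skin between the 7 and the 12 was not itself tested.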

How the data were processed

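RNA from storage root flesh and skin was depleted of ribosomal RNA, enriched on oligo(dT) beads and sequenced, per the labels' protocols. The deposited table holds raw read counts per gene and a gene length. Per the submitters' processing notes, the tools were HISAT2 2.0.5, featureCounts and DESeq2 1.40.2, whose roles and order are not recorded. Not given in the sources used here are the build and annotation, whether strand was used, and how multi-mapping reads were handled.

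Counts of the 4 groups were fitted together with edgeR 4.0.16 in R 4.3.3, using TMM scaling, filterByExpr with a minimum count of 10, and the quasi-likelihood test, with Benjamini-Hochberg adjustment over 80351 genes. Of the 1489 members 1113 passed that filter, and the 376 others had a median total of 28 counts and at most 140. The standard error is the log2 fold change divided by the square root of F. CPM uses TMM-scaled library sizes. The fit was tested on simulated data. Intervals of count ratios are exact (Clopper-Pearson, 95%) and cover counting error only, as does the floor of 3 counts.

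The members and lists were chosen with earlier results of these data known. The text names the bound-setting genes, their nearest members above 10 CPM in flesh, the 2 largest rises and falls in skin with an adjusted p under 0.05, no overlap and mean log2 CPM not under 1, and each letter's most abundant member. Members of the group strongly higher in MT flesh, of recurring lengths and of the skin-restricted set were named after their values were seen. Alternatives were DESeq2 1.42.0, its size factors, library totals alone, no filter, the skin libraries alone, a replicate block and each library left out. Same-numbered WT and MT libraries of a tissue had correlations of deviations of -0.0146 to -0.00395, so the numbers do not pair them. Whether the numbers pair skin with flesh within a line was not checked, and the tissue comparisons treat the libraries as unpaired. No set test and no test of the line by tissue difference was made.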

Additional observations from a re-analysis of the deposited data

Results flagged for a closer look

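For 7 of the members named here the MT libraries lay above those of WT in one tissue and below them in the other, with no overlap in either. The differences between tissues were not tested, and for 4 of the 7 one of the 2 directions did not pass edgeR's test, in flesh for 01CG007410 and 01FG004420 and in skin for 01BG006470 and 01EG003820. In each case the value is the log2 fold change of MT against WT in skin minus that in flesh. It was -5.116 for 01CG007410, low in MT skin and slightly higher in MT flesh, and 2.451 for 01FG004420, whose WT skin counts are few. It was -1.617 for 01AG005170 and -0.7893 for 01FG005380, the abundant flesh-leaning members of letters A and F, and 1.043 for 01EG004620, the abundant skin-leaning member of letter E. For 01BG006470 and 01EG003820 it was -5.483 and -8.823, values that depend on the prior count because WT flesh had 0 counts. Gene 01EG003820 had 21, 39 and 17 counts in MT flesh and at most 6 in any skin library.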

How the results depend on the processing

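Alternative runs of single skin differences covered the bound-setting genes, the 2 largest rises and falls in skin and each letter's most abundant member. None of these differences changed sign, and the other members named here were not rerun singly. The summed flesh ratio of letter E, however, went from 0.208 to below 0 on the log2 scale without the 37 members. The larger of the tissue counts changed side in both lines with library totals. In skin, 86 members were higher with DESeq2, 35 with the replicate block and 33 without WT skin replicate 2, against 56, and 25 were lower without that library, against 41. Leaving out 1 library gave 33 to 54 higher and 25 to 39 lower. In flesh, the lower members numbered 30 with DESeq2 and 25 with library totals alone, against 14, and 7 to 16 without 1 library, the 7 without MT flesh replicate 1 or WT flesh replicate 1. The shares of all tested genes in these skin and flesh runs are not given here. With the replicate block, 10 of the 12 flesh-raised members higher in skin were called. With that block the calls of 01DG006020, 01FG004420 and 01DG008910 were lost at adjusted p of 0.077, 0.092 and 0.073 (edgeR). No other call among the singly rerun genes changed with the block. Gene 01FG004420 also lost its call with the skin libraries alone and with no filter, at adjusted p of 0.14 and 0.056 (edgeR). For 01DG008910 the call was lost with library totals alone and with no filter, at 0.076 and 0.053 (edgeR). It was also lost without MT flesh replicate 1 or 3, at 0.061 and 0.054 (edgeR). The 37 members numbered 33 to 38 without 1 library and 38 or 34 at log2 thresholds of 3 or 5, and those higher in skin 8 to 15. Gene 01FG006550 passed in skin with DESeq2, its size factors or the skin libraries alone, at adjusted p of 0.0057, 0.048 and 0.040. The log2 ratios of summed levels in flesh with library totals were 0.1756, 1.227, 0.4917, 0.4107, 0.1062 and 0.0139 on A to F. Without the bound-setting genes they were 0.5244 on C, 0.0018 on E and 0.0485 on F, and without the 37 members 0.0028, 0.0482, 0.0432, -0.0252 and 0.0258 on B to F. In skin, library totals gave 0.2346 on B, 0.0934 on C and 0.0071 on F, and leaving out the 37 gave 0.0863 on B. With 0 counts required in WT flesh, there were 5 bound-setting genes instead of 8. The median share of matched identifiers, 4.30% over 15 pairs of letters, was 0.6211% when 3 other matches within 5 genes were required. The alternatives for the 37 members, the summed level without them and the matching distance were chosen after the data were seen. Skin libraries were shallower than flesh libraries, and 376 members had too few counts to be tested. Where no value is named as a cause, the cause was not tested.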
